A study of Homo sapiens with 6 samples.

Results

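A set of 52 antisense genes was followed in A375, a long-established melanoma cell line of human origin that carries mutant BRAF. They were chosen by their mean level, from the 58735 genes of the deposited table, as the rows annotated antisense that reached 5 FPKM averaged over all 6 libraries. FPKM counts the sequenced fragments of a gene relative to its length and to the size of the library. ZFAS1, SNHG7 and SNHG12, host genes of small nucleolar RNAs, were left out. The table holds 5583 antisense rows in all, and another 409 had a mean from 1 to under 5 FPKM. Cells received CuB, written out in the series title as cucurbitacin B, a compound made by plants related to the cucumber, or the solvent DMSO for 6 h, and each group had 3 libraries of polyadenylated RNA. The protocol gives the dose of CuB as 0.2 µM and the library names give 100 nM, so the dose is uncertain. The labels do not say that replicates were separate cultures, so p-values measure the spread between these libraries, which may be technical.

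An antisense gene is read from the opposite DNA strand of another gene. The products are usually long RNAs without a protein. Where such a gene and a protein-coding gene start close together and read away from each other, they can share a promoter. Where the antisense RNA runs through the coding gene, its transcription has in some known cases silenced or activated that gene. A partner here is the protein-coding gene on the other strand with the largest overlap in bases. By that definition 44 of the 52 antisense genes had a partner, with 42 distinct partners among them.

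The antisense genes had means from 5.13 to 54.7 FPKM, with a median of 7.93 FPKM. Means of 35 genes were below 10 FPKM. The 3 just above the limit were AL445524.1 at 5.13 FPKM, AL591895.1 at 5.22 FPKM and LAMC1-AS1 at 5.26 FPKM. The 3 just below it were WNT5A-AS1 at 4.99 FPKM, AL136018.1 at 4.94 FPKM and AC015712.2 at 4.85 FPKM. Exon lengths ran from 289 to 10225 bases with a median of 898, and 6 genes had a single exon. They lay on 16 chromosomes, with 10 on chromosome 17. A clone name in place of a gene symbol was carried by 33 of them, and 47 had at least 20 fragments in every library. Compared per length, the partner had the higher mean in 22 pairs and the antisense gene in the other 22.

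The CuB libraries held 15502971, 16072462 and 16137093 fragments, and the DMSO libraries 14845976, 15797757 and 15116550. SOX10, the lineage factor of melanocytes, averaged 217.9 FPKM with CuB and 197.8 FPKM with DMSO. The pigment genes MLANA, TYRP1, PMEL, DCT and TYR were all below 1 FPKM in both groups, and GPR143 was too. S100B averaged 6.64 FPKM with CuB and 26.4 FPKM with DMSO, MITF 4.42 FPKM with CuB and 3.96 FPKM with DMSO, and PAX3 4.09 FPKM with CuB and 2.39 FPKM with DMSO. Of 6 keratinocyte markers KRT10 was highest, at 24.7 FPKM with CuB and 17.2 FPKM with DMSO, and KRT1 and DSG3 were at 0. The part of these markers in the results was not tested. Of the leukocyte, endothelial and fibroblast markers, LYZ and PDGFRB passed 1 FPKM. In both groups the deviations of genes from the group mean correlated with GC content to differing degrees. Among the DMSO libraries replicate 2 stood apart, at 0.72 against -0.39 and -0.58 in DMSO replicates 1 and 3. The correlations were -0.54, 0.129 and 0.514 in CuB replicates 1, 2 and 3. DMSO replicate 2 was the highest or the lowest DMSO library for 45 of the 52 antisense genes, a share that was not computed over all genes. The antisense genes gave 10 rises and 18 falls without it, and 8 rises and 19 falls after a GC correction of all libraries. In the fit reported below they gave 9 and 15. Over all 13273 tested genes the rises and falls were 3443 and 2312 without DMSO replicate 2. They were 4081 and 3664 after the GC correction, and 3046 and 2072 in the fit reported below.

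The library kit named in the labels does not mark strand, so the reads of an antisense gene and of its partner cannot be told apart by strand. The values show how shared positions were treated. All 114 antisense rows whose exon bases lie entirely within exons of a gene on the other strand at 10 FPKM or more were listed at 0 fragments. By contrast, 26 of 310 antisense rows with no shared exon base opposite such a gene were at 0. The value of an antisense gene here therefore rests on exon bases that no other gene annotates. Fragments from unspliced RNA of the partner that fall on those bases cannot be told apart from antisense RNA. No exon base was shared with any gene by 17 of the 52, and the largest share with genes of the other strand was 64.9%, in AC023043.1.

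Sequences around the starts are shown for 3 genes. The first pair are from promoters that lie between an antisense gene and a coding gene that reads away from it, where the results below differ between the neighbours. BOLA3-AS1, now named BOLA3-DT, and BOLA3 start 15 bases apart, and capitals mark the 16 bases from one annotated start to the other. MHENCR and GMEB2 start 186 bases apart, and capitals mark the 187 bases between and including their starts. SERTAD4-AS1 is shown for its rise together with SERTAD4, and capitals mark the letters TGANTCA, the motif of AP-1. Windows come from RefSeq on GRCh38.p14, 5′ to 3′ on the strand of the antisense gene.
BOLA3-AS1, chr2:74147731-74148030, plus strand: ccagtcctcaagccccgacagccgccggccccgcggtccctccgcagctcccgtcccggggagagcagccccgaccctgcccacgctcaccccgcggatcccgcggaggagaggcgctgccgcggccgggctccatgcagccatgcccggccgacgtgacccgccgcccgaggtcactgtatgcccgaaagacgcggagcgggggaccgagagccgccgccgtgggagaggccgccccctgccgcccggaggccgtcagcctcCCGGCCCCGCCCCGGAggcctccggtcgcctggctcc
MHENCR, chr20:63626985-63627284, plus strand: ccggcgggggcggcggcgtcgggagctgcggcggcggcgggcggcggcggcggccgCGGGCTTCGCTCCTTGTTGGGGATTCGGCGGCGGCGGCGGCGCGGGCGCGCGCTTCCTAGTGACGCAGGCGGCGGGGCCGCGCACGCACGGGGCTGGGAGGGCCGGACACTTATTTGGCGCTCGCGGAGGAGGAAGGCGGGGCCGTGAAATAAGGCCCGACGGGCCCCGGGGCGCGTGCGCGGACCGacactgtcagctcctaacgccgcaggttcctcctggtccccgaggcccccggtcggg
SERTAD4-AS1, chr1:210233836-210234135, minus strand: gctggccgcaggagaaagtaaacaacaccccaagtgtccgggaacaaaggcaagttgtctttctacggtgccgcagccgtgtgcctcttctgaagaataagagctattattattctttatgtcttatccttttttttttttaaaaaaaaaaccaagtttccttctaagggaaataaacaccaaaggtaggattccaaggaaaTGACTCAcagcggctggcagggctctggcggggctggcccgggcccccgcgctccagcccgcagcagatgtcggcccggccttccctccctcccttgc
The GC share was 79% in the BOLA3-AS1 window, 78.7% in the MHENCR window and 52% in the SERTAD4-AS1 window. RefSeq windows were found for 22 of the 52 antisense genes, 27 windows in all. On either strand TGANTCA was in 3 of the 27, against 7.71% of all 35116 windows. Besides SERTAD4-AS1, these were the windows of PRR7-AS1, which fell, and DLGAP1-AS2, which did not pass, with 2 matches each. In the SERTAD4-AS1 window the marked letters lie downstream of the annotated start, which is at position 89. The cyclic AMP response element TGACGTCA was in 0 of the 27, against 1.85% of all windows. The ATF4 and C/EBP composite element TGATGNAA was in 2, against 3.62%, and the NRF2 motif TGACNNNGC was in 5, against 13.4%. TGANTCA and TGACNNNGC can overlap in a sequence. A match is a description of letters only.

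With CuB, 9 of the 52 antisense genes rose, 15 fell and 28 did not pass the test. The test was limma's moderated test of log2(FPKM + 1) over the 13273 genes that averaged 1 FPKM or more, at a Benjamini-Hochberg adjusted p under 0.05. Of all tested genes, 22.9% rose, 15.6% fell and 38.6% were called either way. A log2 fold change of at least 1 in size was reached by 3 of the rises and 4 of the falls, against 4.87% and 2.37% of all tested genes. The 3 CuB values lay all above or all below the 3 DMSO values for 30 of the 52 antisense genes and for 51.5% of all tested genes. In bulk RNA, fewer cells with a transcript and less of it per cell cannot be told apart. The median log2 fold change was -0.20 over the antisense genes and 0.05 over all tested genes. Because the mean over all libraries chose the members, 18 of them were under 5 FPKM in CuB or in DMSO and entered through the other group. All 3 of the rises of that size were such genes, and so were AL139241.1 and THCAT158 among the 4 falls. Among the 34 with at least 5 FPKM in each group, 5 rose and 9 fell, with 0 rises and 2 falls of that size. The weaker antisense rows, from 1 to under 5 FPKM, gave 31 rises and 100 falls in 409. With libraries scaled to equal fragment totals, the median of all genes moved by -0.14 and the share of calls that were rises was 39.3%, against 59.5% as deposited. The counts for the antisense genes were then 7 rises and 20 falls, and over all 13273 tested genes 2022 rises and 3128 falls.

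**Figure D1:**
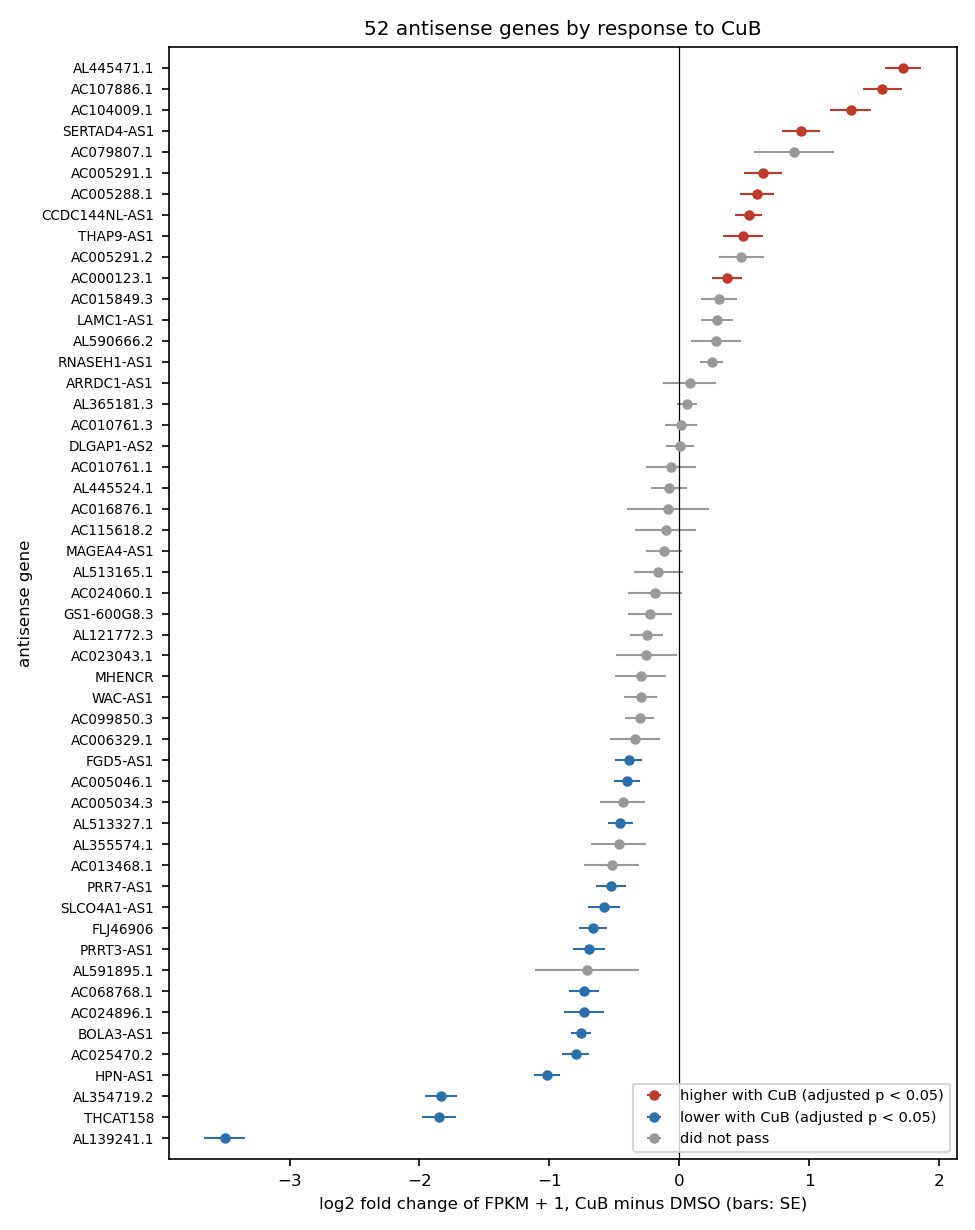
Log2 fold change of FPKM + 1, CuB minus DMSO, for the 52 antisense genes from the largest rise at the top to the largest fall, with SE as bars. Red points are the 9 genes that rose, blue points the 15 that fell and grey points the 28 that did not pass. AL139241.1 lies lowest, at -3.50, and AL445471.1 highest, at 1.72.

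The largest fall was AL139241.1, a gene of 2 exons at chr10:98252023-98256575 on the plus strand, inside LOXL4 (GRCh38). LOXL4 encodes a lysyl oxidase that crosslinks collagen and elastin. AL139241.1 had 0.423, 0.633 and 1.09 FPKM with CuB, against 20.3, 16.5 and 17.8 FPKM with DMSO. Every CuB value was far below every DMSO value, and the CuB libraries held 37 fragments of it in all against 1004 in the DMSO libraries. Its log2 fold change was -3.50 ± 0.16 (SE), with a limma adjusted p of 1.38e-05. LOXL4 itself had 31.7, 33.3 and 36.3 FPKM with CuB, against 229.1, 253.4 and 217.2 FPKM with DMSO. That was a log2 fold change of -2.75, with a limma adjusted p of 4.34e-06, so both genes of the locus fell and no values overlapped. Of the exon bases of AL139241.1, 13.0% are shared with the other strand, and the rest lies in introns of LOXL4.

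THCAT158, now named EFCAB13-DT, had 1.58, 2.07 and 1.78 FPKM with CuB, against 10.8, 7.71 and 9.07 FPKM with DMSO. The groups were well apart, with a log2 fold change of -1.85 ± 0.13 (SE) and a limma adjusted p of 0.00011. Its annotated partner with the largest overlap, AC068234.1, was listed at 0 in all 6 libraries. It also overlaps the 3′ end of ITGB3, the integrin beta chain of the vitronectin receptor, without sharing an exon base. ITGB3 averaged 21.2 ± 0.685 FPKM with CuB and 54.2 ± 2.16 FPKM with DMSO (SD, n = 3 each), and its log2 fold change was -1.32 with a limma adjusted p of 3.42e-05. EFCAB13, whose start lies 323 bases from that of THCAT158, averaged 0.636 FPKM with CuB and 1.3 FPKM with DMSO and was below the level tested.

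AL354719.2, now named SCAT8, lies within EYS, a gene of photoreceptors. It had 8.06, 6.15 and 5.66 FPKM with CuB, against 26.7, 24.8 and 26.2 FPKM with DMSO. The log2 fold change was -1.83 ± 0.13 (SE), with a limma adjusted p of 8.53e-05 and no overlap of the groups. EYS averaged 0.194 FPKM with CuB and 0.662 FPKM with DMSO, too low to be tested. AL354719.2 shares no exon base with any gene.

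HPN-AS1 overlaps the 3′ end of HPN, which encodes hepsin, a serine protease of the cell surface. HPN-AS1 had 5.9, 7.0 and 7.62 FPKM with CuB, against 15.0, 14.4 and 15.0 FPKM with DMSO. The CuB values were all lower, with a log2 fold change of -1.02 ± 0.10 (SE) and a limma adjusted p of 0.000436. HPN had 0.752, 0.756 and 1.11 FPKM with CuB, against 3.01, 4.86 and 3.09 FPKM with DMSO, a log2 fold change of -1.30 with a limma adjusted p of 0.00165. Both genes fell, although HPN was expressed at a low level. The difference between their changes, 0.28, did not pass the test of pairs described below, at a limma adjusted p of 0.324. With limma-voom on the recovered fragments HPN fell more than HPN-AS1, by 0.93 with an adjusted p of 0.00598.

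AC025470.2, now named RMEL3, is known as an RNA largely restricted to melanoma. It was the second most highly expressed of the 52, at chr5:57395060-57533424 on the plus strand. It had 30.2, 27.1 and 23.9 FPKM with CuB, against 51.3, 44.6 and 46.9 FPKM with DMSO. All CuB values lay below all DMSO values, with a log2 fold change of -0.80 ± 0.11 (SE) and a limma adjusted p of 0.00153. The small actin gene ACTBL2, which lies inside its span on the other strand, was below 0.6 FPKM in every library.

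The other falls ranged from -0.76 to -0.39 on the log2 scale. AC024896.1 averaged 4.08 FPKM with CuB and 7.38 FPKM with DMSO, and its partner TM7SF3, a membrane protein gene, averaged 24.4 FPKM with CuB and 36.4 FPKM with DMSO. Both fell. AC068768.1 averaged 3.95 FPKM with CuB and 7.19 FPKM with DMSO and fell with C12orf65, a mitochondrial translation release factor, although 29.2% of its exon bases are shared with other genes. Most of the remaining falls were weaker. PRRT3-AS1 averaged 4.94 FPKM with CuB and 8.54 FPKM with DMSO. Its partner PRRT3 was at 0.842 FPKM with CuB and 1.78 FPKM with DMSO, a fall whose limma adjusted p of 0.029 became 0.0819 without DMSO replicate 1, 0.0664 without DMSO replicate 2, 0.0598 without CuB replicate 1 and 0.0564 without CuB replicate 3. SLCO4A1-AS1 averaged 7.13 FPKM with CuB and 11.2 FPKM with DMSO, and all 3 CuB values of the organic anion transporter gene SLCO4A1 lay below its DMSO values. SLCO4A1 did not pass, at an adjusted p of 0.0985, but passed under quantile normalization at 0.0184, with equal fragment totals at 0.0362 and after the GC correction at 0.000383. AL513327.1 averaged 4.31 FPKM with CuB and 6.29 FPKM with DMSO and fell, at a limma adjusted p of 0.00961. Its partner PHC2, a Polycomb subunit, did not pass, but passed as a fall under quantile normalization at 0.0171. A3GALT2, which AL513327.1 overlaps at the 5′ end, averaged 0.309 FPKM with CuB and 1.4 FPKM with DMSO and was below the level tested. AC005046.1 fell with the laminin gene LAMB1, at 5.89 FPKM with CuB and 8.11 FPKM with DMSO. Its adjusted p of 0.0198 became 0.0562 without CuB replicate 1, 0.0808 without CuB replicate 2 and 0.0601 without DMSO replicate 3.

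Among the rises, AL445471.1, now named RUNX3-AS1, was the largest. It lies at chr1:24961345-24963097 on the plus strand, in an intron of RUNX3, a Runt-family transcription factor. It had 13.4, 14.8 and 10.03 FPKM with CuB, against 3.26, 2.98 and 3.12 FPKM with DMSO. The groups were far apart, with a log2 fold change of 1.72 ± 0.14 (SE) and a limma adjusted p of 0.00018. RUNX3 had 33.9, 40.7 and 43.4 FPKM with CuB, against 14.2, 19.5 and 13.9 FPKM with DMSO, and its log2 fold change was 1.26 with a limma adjusted p of 0.00101. Both genes rose, and no exon base is shared between them. The difference between their changes, 0.46 ± 0.24 (SE), did not pass the test of pairs described below, with a limma adjusted p of 0.2. With limma-voom on the recovered fragments it passed, at 0.69 and an adjusted p of 0.0294.

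A pair of rising genes lay near each other on chromosome 11. AC107886.1, inside ANO5, a gene of the anoctamin family, had 10.9, 7.16 and 8.81 FPKM with CuB, against 2.53, 2.01 and 2.48 FPKM with DMSO. Its log2 fold change was 1.56 ± 0.15 (SE), with a limma adjusted p of 0.000383. AC104009.1, now named SLC17A6-DT, had 16.2, 13.9 and 10.4 FPKM with CuB, against 4.97, 4.13 and 5.14 FPKM with DMSO. Its log2 fold change was 1.32 ± 0.16 (SE), with a limma adjusted p of 0.00106. Neither gene's groups overlapped. Neither partner was tested: ANO5 averaged 0.372 FPKM with CuB and 0.379 FPKM with DMSO, and SLC17A6, a vesicular glutamate transporter, was listed at 0 in every library.

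SERTAD4-AS1 had 13.4, 14.6 and 14.1 FPKM with CuB, against 5.58, 8.76 and 6.44 FPKM with DMSO. All CuB values were higher, with a log2 fold change of 0.94 ± 0.15 (SE) and a limma adjusted p of 0.00295. SERTAD4, which it overlaps at the 5′ end, had 68.1, 53.6 and 52.4 FPKM with CuB, against 28.1, 22.9 and 29.6 FPKM with DMSO. Its log2 fold change was 1.08, with a limma adjusted p of 0.00126, so both neighbours rose by close to the same log2 amount, and their difference of -0.14 ± 0.25 (SE) did not pass the test of pairs.

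**Figure D2:**
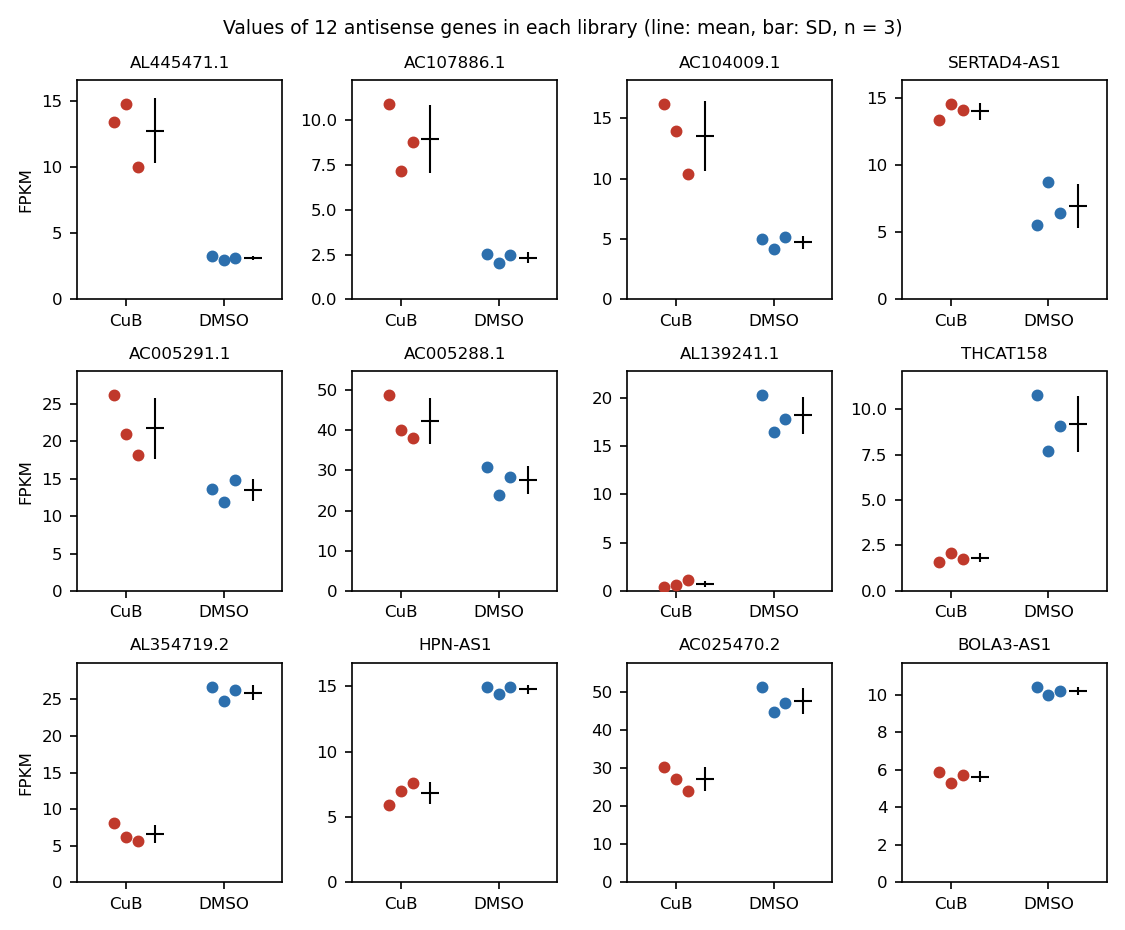
FPKM of 12 antisense genes in each library, CuB in red on the left and DMSO in blue on the right of each panel, with the mean as a line and the SD as a bar (n = 3). The first 6 panels are genes that rose and the last 6 genes that fell. In each panel the groups do not overlap, and AL139241.1 stays near 0 in all 3 CuB libraries.

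Smaller rises came from 5 genes. AC005291.1 averaged 21.8 ± 4.08 FPKM with CuB and 13.5 ± 1.5 FPKM with DMSO (SD, n = 3 each), inside MYH13, a myosin heavy chain of extraocular muscle. MYH13 itself averaged 4.92 FPKM with CuB and 2.48 FPKM with DMSO and rose, with a limma adjusted p of 0.000966. AC005291.2, at the 3′ end of the same MYH13 gene, averaged 39.3 FPKM with CuB and 28.0 FPKM with DMSO and did not pass, with a limma adjusted p of 0.0627. AC005288.1, one of the most abundant of the 52, had 48.7, 40.1 and 38.0 FPKM with CuB, against 30.8, 23.8 and 28.3 FPKM with DMSO. It rose along with MED1, a subunit of the Mediator complex whose 3′ end it overlaps, at a log2 fold change of 0.60 against 0.57 for MED1. CCDC144NL-AS1 averaged 6.88 FPKM with CuB and 4.42 FPKM with DMSO.

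THAP9-AS1 and AC000123.1 rose with little to spare. THAP9-AS1, whose start overlaps that of THAP9, a gene derived from a transposase, averaged 10.8 FPKM with CuB and 7.37 FPKM with DMSO. Its limma adjusted p of 0.0397 ranged from 0.0768 to 0.102 without CuB replicate 1 or 2 or DMSO replicate 1 or 2, and was 0.108 with equal fragment totals. AC000123.1, inside the zinc finger gene ZNF800, averaged 8.53 FPKM with CuB and 6.37 FPKM with DMSO. Its limma adjusted p of 0.0392 ranged from 0.0762 to 0.132 without CuB replicate 2 or 3 or DMSO replicate 1 or 3, and was 0.166 with equal fragment totals.

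Among the other highly abundant antisense genes, AC099850.3, AL365181.3 and AL513165.1 did not pass, while FGD5-AS1 and FLJ46906 fell. AC099850.3, now named PRR11-AS1, had the highest mean of all. It was at 55.6, 46.9 and 44.4 FPKM with CuB, against 65.1, 54.4 and 61.9 FPKM with DMSO, and the groups overlapped. Its limma adjusted p was 0.0719, and without CuB replicate 1 or DMSO replicate 2 it was 0.0321 and 0.032, and with equal fragment totals 0.0146. AL365181.3, inside BCAN, the gene of brevican, averaged 34.1 FPKM with CuB and 32.6 FPKM with DMSO, at an adjusted p of 0.568. AL513165.1 averaged 30.7 FPKM with CuB and 33.8 FPKM with DMSO, at an adjusted p of 0.535. FGD5-AS1, the member with the most fragments, averaged 26.7 FPKM with CuB and 35.4 FPKM with DMSO and fell with a limma adjusted p of 0.0264. That call was lost, at 0.082 to 0.0955, without CuB replicate 2 or 3 or DMSO replicate 1 or 3. Its partner FGD5, an exchange factor of endothelial cells, was near 0.

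Antisense genes and partners were then set side by side. A pair was fitted where both had a mean of at least 1 FPKM, and the log2 difference between them in each library was compared between CuB and DMSO by limma over all 334 such pairs of the table, 37 of them with a member of the 52. Both genes rose in 6 of the 37 pairs, or 16.2%, and both fell in another 6. Among the other 297 pairs both rose in 4.38% and both fell in 8.75%. These shares were not compared by a test, and the 37 pairs were chosen on the level of the antisense gene. Among the pairs that rose together, AL445471.1 and CCDC144NL-AS1 were under 5 FPKM with DMSO and entered through CuB. Among those that fell together, AL139241.1, AC024896.1, AC068768.1 and PRRT3-AS1 were under 5 FPKM with CuB and entered through DMSO. Shares, signs and correlations were not computed for only the pairs at 5 FPKM or more in each group. The antisense gene fell while the partner rose in 2, or 5.41%, FLJ46906 with NHSL1 and PRR7-AS1 with GRK6, against 4.71% of the other 297 pairs. In 9 pairs, or 24.3%, the partner rose and the antisense gene did not pass, against 14.8% of the other pairs. Among these 9, BCAN was the partner of both AL365181.3 and AL590666.2. The log2 fold changes had the same sign in 30 of the 37 pairs, with Pearson's r = 0.88 and Spearman's rho = 0.76. Without AL139241.1 and LOXL4, r was 0.78. In the 11 pairs whose exons share no base, r was 0.78 and the sign was the same in 10. The sign was the same in 14 of 15 pairs with the antisense gene inside the partner and in 6 of 10 that overlap at the 5′ ends. Over the 297 pairs of the other antisense rows of at least 1 FPKM, r was 0.45 and the sign was the same in 171. These correlations describe pairs that share libraries, position in the genome and, without strand, possibly reads. How far reads of the partner enter the antisense values was not tested.

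**Figure D3:**
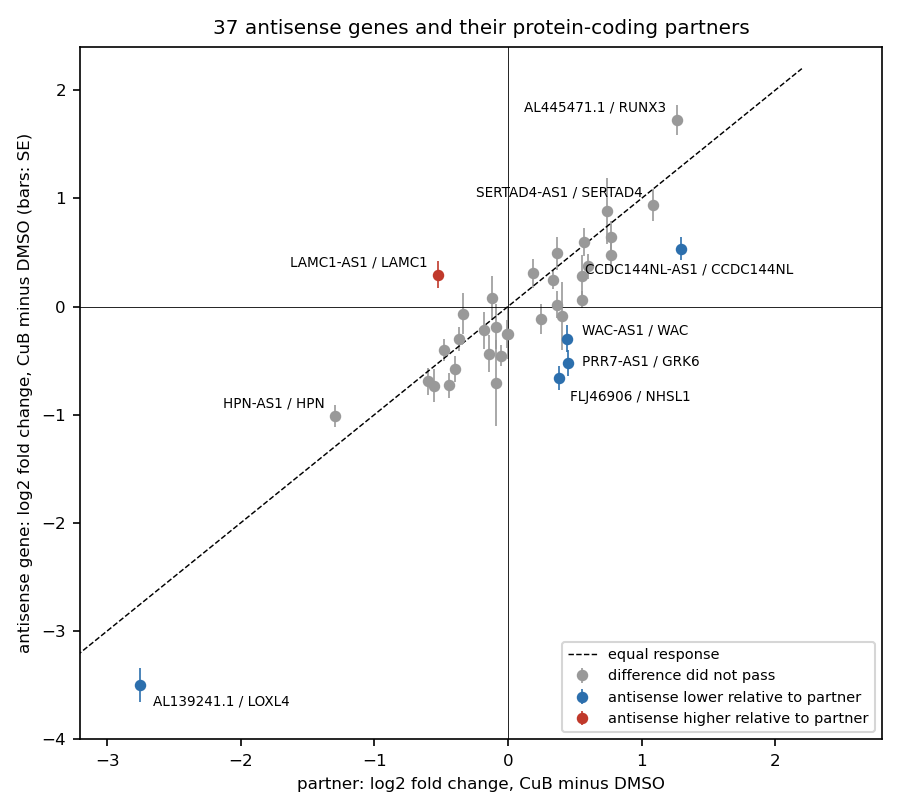
Log2 fold change of each antisense gene, CuB minus DMSO, with SE as bars, against that of its protein-coding partner for 37 pairs. On the dashed line both change equally. Blue points are the 5 antisense genes that fell relative to the partner, the red point is LAMC1-AS1, and LOXL4 with AL139241.1 lies alone at the lower left.

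By the test of pairs, 1 antisense gene rose and 5 fell relative to the partner, and 31 pairs did not pass. Over all 334 pairs, 5.09% rose, 19.8% fell and 24.9% were called either way. LAMC1-AS1, CCDC144NL-AS1 and AL139241.1 were under 5 FPKM in CuB or in DMSO and entered through the other group. In the 25 fitted pairs whose antisense gene had at least 5 FPKM in each group, 0 rose and 3 fell relative to the partner. LAMC1-AS1 rose relative to LAMC1, a laminin chain gene in whose introns it lies. It had 5.75, 5.47 and 6.42 FPKM with CuB, against 5.44, 3.83 and 4.68 FPKM with DMSO, while LAMC1 had 93.5, 97.4 and 97.3 FPKM with CuB, against 141.7, 132.3 and 140.7 FPKM with DMSO. LAMC1 fell clearly, and the antisense values were barely apart. The difference was 0.81 ± 0.17 (SE), with a limma adjusted p of 0.00815.

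FLJ46906, now named NHSL1-AS1, fell relative to NHSL1, a regulator of actin and cell movement, with which it shares 24 bases at the starts annotated in GENCODE 29. FLJ46906 had 19.6, 16.1 and 15.1 FPKM with CuB, against 26.3, 26.8 and 28.5 FPKM with DMSO. NHSL1 had 14.6, 14.5 and 15.3 FPKM with CuB, against 11.2, 11.5 and 10.6 FPKM with DMSO. The antisense gene was lower and the coding gene higher in every CuB library than in any DMSO library, although the rise of NHSL1 was lost under quantile normalization at an adjusted p of 0.0505. The difference was -1.05 ± 0.18 (SE), with a limma adjusted p of 0.00321.

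PRR7-AS1 had 7.55, 8.1 and 10.03 FPKM with CuB, against 13.1, 13.4 and 11.6 FPKM with DMSO. GRK6, a kinase of G protein-coupled receptors whose 3′ end it overlaps, had 11.9, 13.0 and 15.1 FPKM with CuB, against 8.89, 11.4 and 8.37 FPKM with DMSO. The 2 genes moved apart, by -0.97 ± 0.17 (SE) with a limma adjusted p of 0.00321. The calls of the single genes were less firm than that of the pair. For PRR7-AS1 the adjusted p of 0.0129 became 0.0567 without CuB replicate 2 and 0.052 without DMSO replicate 1. For GRK6 the adjusted p of 0.0391 ranged from 0.101 to 0.122 without CuB replicate 2 or 3 or DMSO replicate 1 or 3, and was 0.137 with equal fragment totals. PRR7, the head-to-head neighbour on the other side, averaged 8.2 FPKM with CuB and 13.2 FPKM with DMSO and did not pass, but passed with equal fragment totals at an adjusted p of 0.0463 and after the GC correction at 0.000457.

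The other 3 falls relative to the partner were of different kinds. WAC-AS1 averaged 5.7 ± 1.11 FPKM with CuB and 7.16 ± 0.384 FPKM with DMSO (SD, n = 3 each) and did not pass by itself, at an adjusted p of 0.108. It passed in 6 of 17 alternatives, among them equal fragment totals at 0.029, the GC correction at 0.0173 and the fit without CuB replicate 1 at 0.0215. WAC, an adaptor of histone ubiquitination, averaged 20.2 ± 0.874 FPKM with CuB and 14.6 ± 1.1 FPKM with DMSO and rose, at an adjusted p of 0.0071, or 0.052 under quantile normalization. Their difference was -0.74 ± 0.17 (SE), with a limma adjusted p of 0.0127. CCDC144NL-AS1 rose, but less than CCDC144NL, at 4.8 FPKM with CuB and 1.37 FPKM with DMSO. That difference was -0.76, with a limma adjusted p of 0.0129 that became 0.0605 without DMSO replicate 1. AL139241.1 fell more than LOXL4, by -0.75 with a limma adjusted p of 0.0173. That call was lost without CuB replicate 1, DMSO replicate 1 or DMSO replicate 3, at adjusted p of 0.0561, 0.0755 and 0.0527.

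**Figure D4:**
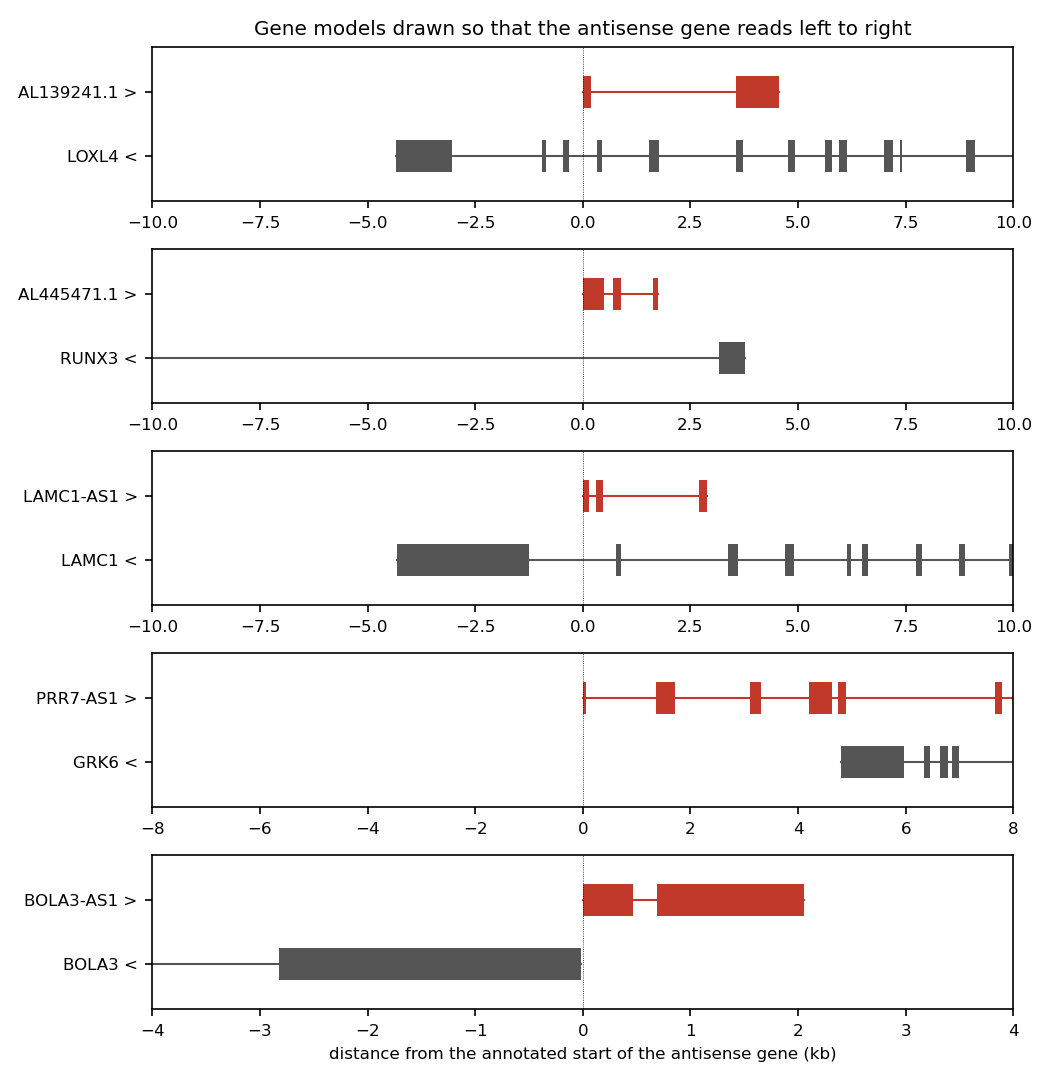
Annotated exons (boxes) of 5 antisense genes, in red, and of a coding gene on the other strand, in grey, by distance in kb from the start of the antisense gene, which reads from left to right. AL139241.1 and LAMC1-AS1 lie among the exons of the partner, AL445471.1 in an intron, PRR7-AS1 runs into the 3′ end of GRK6, and BOLA3-AS1 starts next to BOLA3 without overlap.

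By orientation, 11 antisense genes overlapped the partner at the 5′ ends, 13 at the 3′ ends and 19 lay inside it, and AC025470.2 held ACTBL2 within its own span. Against 22.9% and 15.6% of all tested genes, 4 antisense genes at the 5′ ends rose and 2 fell, and of 10 tested partners 8 rose and 1 fell. Those 8 became 5 with equal fragment totals, 4 under quantile normalization, and 5 without CuB replicate 2 or CuB replicate 3. At the 3′ ends, 1 rose and 6 fell, and of 12 tested partners 4 rose and 3 fell. Inside the partner, 4 rose and 5 fell, and of 15 tested partners 5 rose and 5 fell. BCAN and MYH13, which both rose, count as partners in this class and again in the class at the 3′ ends. Of the 8 without a partner, 1 fell and 0 rose. An unadjusted limma p under 0.05 was reached by 2 of these 8 and by 6422 of all 13273 tested genes. The partners together gave 15 rises and 9 falls in 35 tested, beside 25.2% rises and 15.2% falls over all protein-coding genes tested. With equal fragment totals the partners gave 10 rises and 10 falls, under quantile normalization 9 and 10, and without CuB replicate 2 they gave 10 and 8. Over all 13273 tested genes the same settings gave 2022 rises and 3128 falls, 2242 and 2509, and 1965 and 1297. These counts are descriptions, and the differences between the classes were not tested.

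A coding gene can also start near an antisense gene without overlap. For 17 of the 52, a protein-coding start on the other strand lay within 1000 bases, and 7 of these read away without overlap. The difference between the antisense gene and this neighbour could be fitted for 14, a comparison added after the data were seen. Relative to the neighbour 6 fell and 1 rose, where over all 133 such pairs 33.8% fell, 4.51% rose and 38.3% were called either way.

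MHENCR, known as an RNA highly expressed in melanoma, had 5.02, 3.86 and 5.34 FPKM with CuB, against 5.04, 8.39 and 5.04 FPKM with DMSO. Its groups overlapped. GMEB2, a factor that binds glucocorticoid modulatory elements, had 12.4, 15.5 and 16.9 FPKM with CuB, against 5.9, 8.15 and 5.91 FPKM with DMSO. GMEB2 rose while MHENCR, from the other side of the window printed above, did not pass, and their difference was -1.35 ± 0.19 (SE) with a limma adjusted p of 0.00101.

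BOLA3-AS1 had 5.89, 5.31 and 5.73 FPKM with CuB, against 10.4, 9.99 and 10.2 FPKM with DMSO. BOLA3, which serves mitochondrial iron-sulfur cluster assembly, had 7.71, 6.28 and 7.37 FPKM with CuB, against 5.04, 5.28 and 5.1 FPKM with DMSO. BOLA3-AS1 was lower and BOLA3 higher in every CuB library than in any DMSO library. BOLA3-AS1 had a log2 fold change of -0.76 ± 0.08 (SE) and a limma adjusted p of 0.000503, and BOLA3 had 0.40 ± 0.09 (SE) and a limma adjusted p of 0.0154. The rise of BOLA3 alone was lost without CuB replicate 3 at 0.0558, without DMSO replicate 1 at 0.0612 and with equal fragment totals at 0.0647. The difference was -1.16 ± 0.14 (SE), with a limma adjusted p of 0.000575.

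AL355574.1, now named CAMSAP1-DT, averaged 6.83 ± 2.18 FPKM with CuB and 9.5 ± 0.629 FPKM with DMSO (SD, n = 3 each) and did not pass by itself, at a limma adjusted p of 0.124, or 0.0304 after the GC correction. CAMSAP1, a protein of microtubule minus ends, averaged 12.1 ± 0.744 FPKM with CuB and 8.78 ± 0.29 FPKM with DMSO and rose. Their difference was -0.88, with a limma adjusted p of 0.0114. FGD5-AS1 fell relative to NR2C2, a nuclear receptor gene that did not pass, by -0.53 with a limma adjusted p of 0.0157. That call was lost without CuB replicate 2, DMSO replicate 1 or DMSO replicate 3, at 0.0688, 0.0512 and 0.0708. FLJ46906 with NHSL1 and WAC-AS1 with WAC were the other falls. AC005288.1 rose relative to FBXL20, an F-box protein gene at 3.96 FPKM with CuB and 4.12 FPKM with DMSO, by 0.64 with a limma adjusted p of 0.0123, or 0.0672 under quantile normalization.

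**Figure D5:**
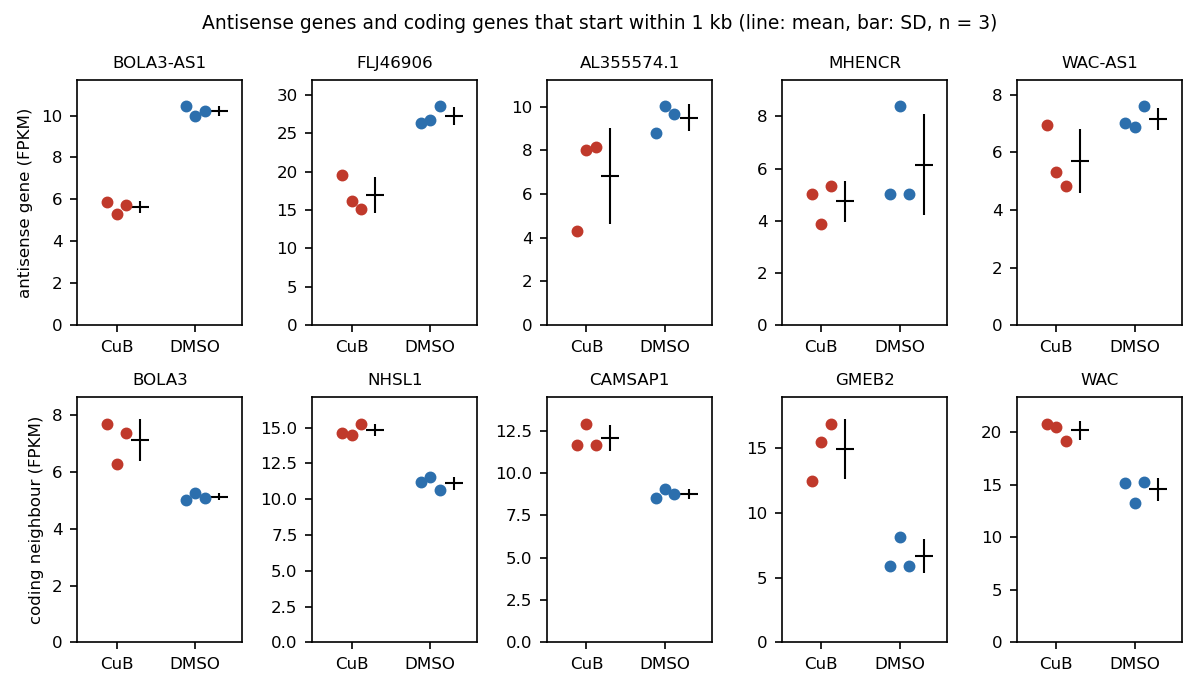
FPKM in each library for 5 antisense genes (upper row) and for the coding gene on the other strand that starts within 1 kb (lower row), CuB in red on the left and DMSO in blue on the right, with the mean as a line and the SD as a bar (n = 3). All CuB values of the 5 coding genes lie above the DMSO values, while BOLA3-AS1, FLJ46906 and AL355574.1 have all CuB values below.

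A list of RNAs with names in the literature, written as antisense or promoter-sharing RNAs, gave a wider view. Some of them are annotated otherwise, NORAD and CYTOR as long intergenic RNAs and DUSP5P1 as a processed pseudogene. Of 95 names, 86 were found and 35 were tested, with 3 rises and 12 falls, and outside the 52 there were 2 rises and 11 falls in 31. Of all tested genes 22.9% rose and 15.6% fell, and of antisense rows from 1 to under 5 FPKM 7.58% rose and 24.4% fell. HOXB-AS3, from the HOXB cluster, averaged 1.26 ± 0.0609 FPKM with CuB and 5.19 ± 1.06 FPKM with DMSO (SD, n = 3 each), a log2 fold change of -1.44 with a limma adjusted p of 0.000404. GABPB1-AS1 fell by 1.00 on the log2 scale and HAGLR, from the HOXD cluster, by 0.99, with limma adjusted p of 0.000993 and 0.000843. DUSP5P1, a pseudogene transcript, fell by 0.97 with a limma adjusted p of 0.00402.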

How the data were processed

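Polyadenylated RNA libraries were made with a TruSeq RNA kit, per the labels' protocols. The authors deposited FPKM values, with gene coordinates, lengths and biotypes, with GRCh38 named in the submitters' processing notes. Neither the aligner nor the counting tool is given in the sources used here. All 58735 identifiers and coordinates matched GENCODE 29, from which exons and starts were taken. FPKM times gene length gave whole fragments within 0.01 for 100% of values above 0 in each library, which is how depth was known. The implied library sizes were 0.914 to 0.927 times the fragment totals for CuB and 1.03 to 1.04 times for DMSO.

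Log2(FPKM + 1) was tested with limma 3.58.1 in R 4.3.3, with an intensity trend and no replicate block, for genes that averaged 1 FPKM or more. A fold change on this scale understates the change of low genes. Pair differences were fitted without the trend. Benjamini-Hochberg adjustment ran over all genes or pairs fitted, at a threshold of 0.05. Fits were tested on simulated data. A limma-voom fit on the recovered fragments was an alternative, among others given in the closing section. Newer gene symbols come from a table of gene names. Plots used matplotlib 3.10.9 under Python 3.11.15.

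Members, gene lists and tests were chosen with earlier results of these data known. Genes named with full values were the 12 largest rises and falls that passed without overlap of the groups, the 8 with the highest means, those past the test of pairs, their partners, and the 4 largest passing changes among published RNAs. Others, the shared starts among them, were picked with their values in view.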

Additional observations from a re-analysis of the deposited data

How the results depend on the processing

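Among the results recomputed under the alternatives (antisense genes, partners, pairs and start pairs, and other named genes), no called value changed sign. Of the 24 antisense genes called, 18 kept the call in all 17 alternatives, which were another pseudocount, filters, scalings, limma without the trend, limma-voom, the replicate block, a GC correction and each library left out. Of the 6 pair calls 4 kept the call in every alternative that fitted them, of 24 called partners 15 and of 7 called start pairs 5. Partners with a mean under 5 FPKM, and their pairs, had 16 alternatives, as 1 filter left them out. Of those that did not pass, 12 of 28 antisense genes and 7 of 11 partners passed in at least 1 alternative. The GC correction gave 8 rises and 19 falls, and with the replicate block 12 and 22. Over all tested genes these 2 settings gave 4081 rises and 3664 falls, and 3893 and 3477. With libraries left out in turn, rises numbered 7 to 10 and falls 13 to 18, and pairs gave 1 rise and 3 to 6 falls, the 3 without DMSO replicate 1. Over all tested genes those fits gave 1965 to 3443 rises and 1297 to 2312 falls. Requiring 5 FPKM in each group gave 5 rises and 9 falls, from fewer genes. Pairs gave 2 rises and 8 falls without a filter, 3 rises with limma-voom, and 1 fall among pairs with no shared exon position. In the main fit 5.09% of all 334 pairs rose and 19.8% fell. For these settings, and for libraries left out or the replicate block, shares over all pairs were not counted. Pairing by nearest start, added after the data were seen, gave 1 rise and 6 falls, against 4.51% and 33.8% of all 133 such pairs. The cause was not tested for the changes without a filter and with limma-voom. AC005288.1 lost its call under quantile normalization, at an adjusted p of 0.0759. Same-numbered libraries did not deviate together (correlations of 0.269, 0.118 and -0.357), so the numbers were not taken as pairs, and not every library correlated best with its own number. With the replicate block there were 10 rises, 16 falls, and 1 rise and 6 falls of pairs. Over all tested genes the block gave 2647 rises and 1796 falls. Low counts limit the weakest genes, down to 7 fragments in a library.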
